A study of Macaca mulatta with 21 samples.

Results

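The comparison described here set 2 male rhesus macaque pluripotent stem cell lines side by side: CRES-1, derived from a cloned embryo, and RiPS1, derived by induced reprogramming. Its members were all probe sets of the deposited array table that carry a single gene symbol and reached a log2 level of 5 on at least 3 of the 6 arrays of these lines. That rule kept 16992 of 52865 probe sets, which stand for 10508 of the 14133 genes with such a symbol. It used the levels alone, but with 3 arrays a line a probe set could pass through the line where it is high. The rule is therefore not independent of the difference between the lines. At the edge of the rule, the third highest of the 6 values was 5.00001 in the last probe set kept and 4.99995 in the first one left out.

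The series measured RNA on a 1-colour expression array in 21 samples, 3 labelled biological replicates (A, B and C) of each of 7 lines, all from rhesus macaques. CRES-1 came from a blastocyst made by somatic cell nuclear transfer, in which the nucleus of a body cell replaces that of an egg. RiPS1 came from skin fibroblasts of a fetus that were given retroviral OCT4, SOX2, KLF4 and cMYC. The other lines were ORMES23, a male embryonic stem cell line from an embryo fertilised in vitro, CRES-3, a female cloned line, RiPS2 and RiPS3, female induced lines from skin fibroblasts of adults aged 10 and 8 years, and female adult skin fibroblasts from an animal aged 8 years. The pluripotent lines were grown on mitotically inactivated mouse embryonic fibroblasts and their colonies were picked by hand. Each line is 1 derivation, and nothing in the labels says how the replicates of a line were separated, so the tests below measure the spread between samples of a line and cannot tell the way of derivation apart from the animal, its genotype or the history of that line.

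A cloned line and an induced line are both routes from a body cell back to pluripotency, the state in which a cell can give rise to all tissues of the embryo proper. In nuclear transfer the egg's own proteins reset the donor nucleus, while in induced reprogramming a few transcription factors delivered by virus do so over many divisions. Features often examined in such lines are the core pluripotency network, imprinted genes, whose expression depends on the parent of origin, and the X chromosome, of which a male cell has a single copy and a female cell silences all but one, apart from genes that escape silencing.

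A gene was called where its Benjamini-Hochberg adjusted p in limma was under 0.05 and its difference at least 2-fold, which held for 2.23% of all genes tested. Of 35 pluripotency markers 21 were tested and none was called, a count that a list of this size can have at that share, and their median was close to that of all genes. It was a log2 difference, CRES-1 minus RiPS1, of -0.08 against -0.04. The mean level of those markers was 8.74 to 8.95 on the CRES-1 arrays, 8.85 to 8.87 on the RiPS1 arrays and 5.99 to 6.31 on the fibroblast arrays. POU5F1, which encodes OCT4, stood at 12.3, 12.3 and 12.7 on CRES-1 arrays A, B and C and at 12.5, 12.5 and 12.4 on RiPS1 arrays A, B and C, against a mean of 4.14 in fibroblasts. The POU5F1 ranges of the 2 lines overlapped, and the difference of -0.05 ± 0.26 (SE, n = 3 arrays a line, as for every SE below) has no settled sign, being 0.07 after centring each array on its median.

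The other factors delivered to RiPS1 were not called either. MYC differed by 0.16 ± 0.24 and KLF4 by 0.79 ± 0.36, with adjusted p of 0.733 and 0.201. KLF4 stood at 8.61, 8.66 and 7.87 in CRES-1 and at 7.62, 7.85 and 7.32 in RiPS1, so that its arrays did not overlap. SOX2, read from its brightest probe set, stood at 11.7, 12.02 and 12.3 in CRES-1 and 11.9, 12.2 and 12.2 in RiPS1. The other SOX2 probe sets were both lower in CRES-1 with no overlap. One stood at 7.46, 7.66 and 6.67 in CRES-1 and 8.04, 8.12 and 8.41 in RiPS1, a difference of -0.93, and the other at 8.74, 9.07 and 8.30 in CRES-1 and 9.66, 9.71 and 10.1 in RiPS1, a difference of -1.11. When every probe set was tested on its own, 1 of the 4 factors had a called probe set, this one of SOX2, and the mean of the SOX2 probe sets gave -0.71. On the SOX2 probe set with -1.11, ORMES23 had a mean of 9.36 and RiPS3 9.83, and the sources used here do not give the stretch of the transcript that each SOX2 probe set reads.

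Single markers of other cell types were called, in shares to be read against the 2.23% of all genes. Of 24 fibroblast markers tested, 1 was lower in CRES-1 (COL6A3) and none higher, with mean levels of 8.51 to 8.92 in CRES-1, 8.68 to 8.90 in RiPS1 and 11.2 to 11.4 in fibroblasts. Of 20 epithelial markers 1 was higher (OCLN), and of 12 neural markers 1 was lower (EBF2). None of 9 mesoderm, 11 endoderm and 12 trophoblast and amnion markers was called, although the endoderm markers varied widely between arrays, from 6.99 to 8.47 in CRES-1 and 7.82 to 8.64 in RiPS1. BMP4, a mesoderm-inducing signal, stood at 9.85, 9.81 and 9.84 in CRES-1 and 8.37, 7.78 and 8.76 in RiPS1, a difference of 1.53 ± 0.48 with an adjusted p of 0.0623. XIST has no named probe set, and the measured Y-linked genes did not separate the labelled sexes. SRY had a mean of 6.08 in the female line CRES-3 and ranged from 5.06 to 5.67 in CRES-1 and 5.38 to 5.58 in RiPS1. LOC709587 and LOC722886, the other tested genes placed on Y, were looked at after the data had been seen, and the CRES-3 means of 7.87 and 7.22 were near the CRES-1 means of 7.82 and 7.32.

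Array medians over all probe sets ranged from 4.98 to 5.14 across the 21 arrays. Correlations between arrays were 0.985 to 0.994 within CRES-1, 0.988 to 0.993 within RiPS1 and 0.975 to 0.987 between them, and no pair of arrays in the series was closer than 0.996. Arrays have no read depth, and the number of arrays limits the precision.

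Between CRES-1 and RiPS1, 234 of 10508 genes (2.23%) were called. Of these 57 (0.542% of those tested) were higher and 177 (1.68%) lower in CRES-1. The excess of falls depends on scaling. After centring each array on its median, which moves the median of all genes from -0.04 to 0.09, 91 of 209 calls were higher in CRES-1, and after quantile normalization 32.7% of calls were higher against 24.4% as deposited. The arrays of the 2 lines did not overlap for 233 of the 234 called genes, and for 29.4% of all genes tested. In 44 called genes the mean of the dimmer line lay under a log2 level of 5, and for those genes, where named, a fold is given as a bound counted from 5 while the log2 difference rests in part on values under that level. The filter may have kept such a gene through its brighter line alone.

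**Figure D1:**
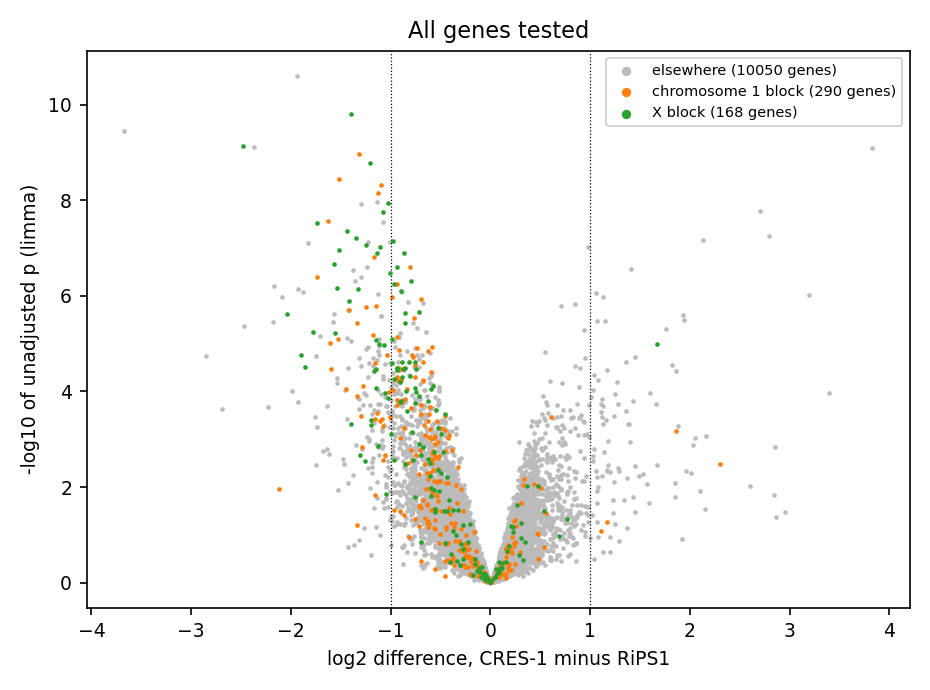
Each point is a gene, with the log2 difference (CRES-1 minus RiPS1) on the horizontal axis and -log10 of the unadjusted limma p on the vertical axis; dotted lines mark 2-fold. Colour shows 290 genes of a block on chromosome 1 and 168 of a block on X, described further on, and both colours lie mostly on the side lower in CRES-1.

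The genes that were highest in CRES-1 relative to RiPS1 came from several functional classes, and in several of them RiPS1 stood apart from all the other pluripotent lines. FAIM, an inhibitor of Fas-mediated apoptosis, stood at 7.19, 7.53 and 7.27 in CRES-1 and at 3.26, 4.04 and 3.19 in RiPS1. The difference was 3.83 ± 0.32, at least 5.02-fold, with an adjusted p of 1.39e-06. The means of FAIM in ORMES23, CRES-3, RiPS2, RiPS3 and fibroblasts were 7.54, 7.49, 6.68, 7.66 and 7.005, so RiPS1 was the line that stood apart. PEG3, a paternally expressed imprinted zinc finger gene, stood at 7.22, 7.49 and 5.93 in CRES-1 and 4.19, 3.73 and 4.34 in RiPS1, a difference of 2.80 ± 0.31 and at least 3.68-fold. The other pluripotent lines had PEG3 means of 6.93 to 7.73, while fibroblasts, at 4.07, were near RiPS1.

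DHRS2, a short-chain dehydrogenase, gave 8.52, 8.36 and 7.501 in CRES-1 and 4.84, 4.94 and 5.01 in RiPS1, a difference of 3.19 ± 0.43, at least 8.73-fold. Its mean was 6.48 to 7.94 in the other pluripotent lines. UBD, a ubiquitin-like modifier induced by inflammatory cytokines, gave 8.44, 8.30 and 8.35 in CRES-1 and 4.95, 5.10 and 4.87 in RiPS1, at least 10.3-fold. Here CRES-1 and ORMES23, with a mean of 7.51, stood together, while CRES-3, RiPS2 and RiPS3 were at 4.90, 4.45 and 4.83. ATP8A2, a phospholipid flippase, gave 5.92, 6.21 and 6.47 in CRES-1 and 3.51, 3.38 and 3.61 in RiPS1, at least 2.296-fold, with ORMES23 at 4.78 between them. UGT3A1, a glycosyltransferase, differed by 1.94 ± 0.29, at least 2.51-fold, and the unnamed genes LOC718462 and LOC695105 by 2.13 ± 0.24 and 1.93 ± 0.28.

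The calls of another 6 of the 15 largest rises were lost without single arrays. CDKN2A, which encodes cell cycle inhibitors, stood at 9.60, 9.35 and 8.61 in CRES-1 and 7.58, 6.30 and 7.53 in RiPS1, a difference of 2.05 ± 0.52 with an adjusted p of 0.0201. CRES-1 was close to fibroblasts (9.37) in CDKN2A, and the other pluripotent lines had means of 5.42 to 8.19. RGS4, a regulator of G protein signalling, differed by 2.31 ± 0.68, RASGRF2, an exchange factor for Ras, by 2.03 ± 0.53, SEMA3C, a secreted guidance cue, by 2.16 ± 0.54, CDH13, a cadherin without an intracellular domain, by 1.89 ± 0.45, and TMEM63A, an ion channel, by 1.86 ± 0.45. For RGS4 and RASGRF2 the RiPS1 level was near that of ORMES23, with differences of 0.05 and -0.26 from it, and CRES-1 was higher by 2.36 and 1.77. Leaving out single arrays ended these calls: CRES-1 A or RiPS1 B for CDH13 (1.67 to 2.05 over all alternatives, adjusted p up to 0.0704), these or CRES-1 B for CDKN2A (1.63 to 2.39, up to 0.117) and TMEM63A (1.14 to 2.1, up to 0.0709), these or RiPS1 A for RASGRF2 (1.69 to 2.40, up to 0.130) and SEMA3C (2.04 to 2.34, up to 0.0736), and any array but RiPS1 C for RGS4 (1.51 to 2.62, up to 0.188), which also lost its call with no filter and with the mean of its probe sets. The calls of FAIM, UBD, DHRS2, PEG3, ATP8A2, LOC718462, UGT3A1 and LOC695105 held with each array left out in turn.

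**Figure D2:**
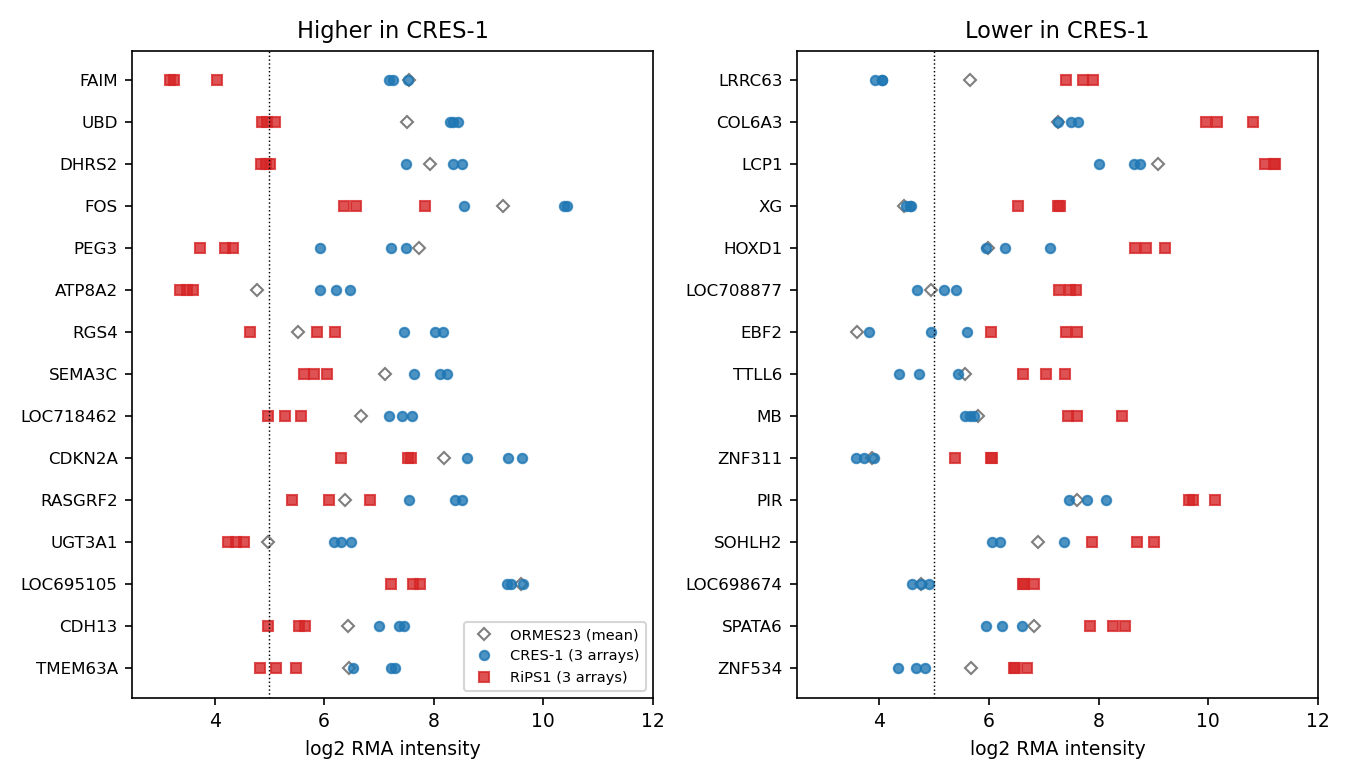
The 15 largest rises (left) and the 15 largest falls (right) by log2 difference in CRES-1 against RiPS1, values under 5 included: each filled point is 1 array (log2 RMA intensity), open diamonds are the ORMES23 mean, and the dotted line is the level of 5 used in the filter. The genes were taken from called genes whose 3 CRES-1 and 3 RiPS1 arrays did not overlap, so that choice sets the arrays apart in every gene shown. In FAIM the diamond lies on the CRES-1 points.

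LRRC63, a leucine-rich repeat gene, was lower in CRES-1. It stood at 4.05, 3.92 and 4.05 in CRES-1 and 7.90, 7.72 and 7.41 in RiPS1, a difference of -3.67 ± 0.29, at least 6.39-fold lower, with an adjusted p of 1.24e-06. ORMES23 lay between them at 5.65. LCP1, which encodes the actin-bundling protein L-plastin, is the gene before LRRC63 in the order of tested genes on chromosome 17, and it stood at 8.64, 8.76 and 8.01 in CRES-1 and 11.0, 11.2 and 11.2 in RiPS1. The LCP1 difference was -2.69 ± 0.58, while ZC3H13 and RUBCNL, the tested genes on either side of the pair, differed by -0.09 and -0.39 and were not called. LCP1 had means of 9.09 to 9.81 in the other pluripotent lines, and 5.62 in fibroblasts.

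COL6A3, a chain of collagen VI that fibroblasts make, stood at 7.27, 7.62 and 7.49 in CRES-1 and 10.8, 10.2 and 9.96 in RiPS1, a difference of -2.85 ± 0.49, or 7.21-fold lower. RiPS1 was near fibroblasts (10.5) in COL6A3, while ORMES23, CRES-3, RiPS2 and RiPS3 were at 7.25, 8.16, 7.12 and 7.70. The rest of the fibroblast list did not go with it: of 24 genes, 12 differences were positive and 12 negative. Those with the smallest p after COL6A3 pointed both ways, with TIMP1, an inhibitor of matrix proteases, at -0.90 ± 0.19, VIM, the intermediate filament vimentin, at 0.94 ± 0.23, and TNC, the matrix protein tenascin C, at 1.17 ± 0.36, at least 1.57-fold, with an adjusted p of 0.0550. TIMP1 and VIM passed the adjusted p but not 2-fold.

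HOXD1, a body-axis transcription factor, stood at 6.29, 5.95 and 7.11 in CRES-1 and 8.66, 9.22 and 8.87 in RiPS1, a difference of -2.47 ± 0.38. Every other line had a HOXD1 mean of 5.45 to 6.94. EBF2, a transcription factor of neural and mesenchymal lineages, gave 4.95, 5.60 and 3.80 in CRES-1 and 7.62, 7.40 and 6.03 in RiPS1, at least 4.04-fold lower, and ORMES23 was at 3.59, so the arrays of both lines lay above it. The EBF2 call was lost when the 6 arrays were tested without the other lines (adjusted p of 0.0558). SOHLH2, a germ cell transcription factor, gave 6.21, 6.05 and 7.38 in CRES-1 and 9.01, 8.71 and 7.89 in RiPS1, and it was the only called gene among 7 germline genes tested.

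The remaining large falls covered muscle, cytoskeletal and zinc finger genes. MB, the oxygen-binding protein myoglobin, gave 5.66, 5.57 and 5.73 in CRES-1 and 8.44, 7.60 and 7.44 in RiPS1, and its means in CRES-3 and RiPS3 were 6.85 and 6.86. TTLL6, a tubulin polyglutamylase, differed by -2.18 ± 0.33, at least 4.06-fold, and SPATA6, a sperm flagellum gene, by -1.93 ± 0.26. For TTLL6 it was CRES-1 that lay apart, at 4.36, 4.72 and 5.44, below the means of 5.56 to 7.73 in the other pluripotent lines and below RiPS1 at 7.05, 7.39 and 6.62. For SPATA6 the means of the other pluripotent lines ran from 5.82 to 8.23 and took in those of CRES-1 and RiPS1. Of 222 genes with a ZNF symbol 3 were lower in CRES-1 (ZNF311, ZNF182 and ZNF534) and none higher, a share of the same order as the 1.68% of all genes. ZNF311 gave 3.71, 3.57 and 3.90 in CRES-1 and 6.04, 6.05 and 5.37 in RiPS1, at least 1.77-fold lower, and CRES-1 and ORMES23 (3.86) were the pluripotent lines with the low level, against 6.13 to 6.93 in the others. ZNF534 differed by -1.93 ± 0.40, at least 2.90-fold, with ORMES23 at 5.67 between the 2 lines. ZNF182 differed by -1.15 ± 0.21, fell under 2-fold without RiPS1 B (between -1.26 and -0.93 over the alternatives), and lies in the X block described next. LOC708877 and LOC698674 differed by -2.37 ± 0.20 and -1.94 ± 0.13, the latter at least 3.23-fold, and CRES-1 differed from ORMES23 in them by 0.14 and -0.01.

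The falls were not spread evenly over the genome. Genes were placed in the order of the RefSeq annotation of the current rhesus assembly, used for names and order alone because the array files name no build, and the single cut that best divided each chromosome's differences into 2 runs was found. This search was added after the differences had been seen, and it set the cuts by those same differences. The medians, counts and array levels of the runs it marked, called blocks below, therefore follow in part from that choice. On chromosome 1 the cut fell after gene 290 of 1071 tested, between RNF187 and HSD17B7, and the run from PGBD2 at the chromosome's start had a median difference of -0.45 against -0.01 for the other 781 genes. On X the cut fell after gene 168 of 407, between SPIN2B and LOC706216, with a median of -0.60 before it and -0.06 after it. These cuts accounted for 14.1% and 18.9% of the variance of the differences on their chromosomes, against at most 2.64% on any of the others, where the largest step between the medians was 0.12.

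In the chromosome 1 block 31 of 290 genes (10.7%) were lower in CRES-1 and 2 higher, and 227 differences were negative. In the rest of chromosome 1, 5 of 781 (0.64%) were lower and 4 higher. In the X block 36 of 168 genes (21.4%) were lower and 1 higher, with 139 negative, and in the rest of X 8 of 239 (3.35%) were lower and none higher. Together the blocks held 67 of the 177 genes lower in CRES-1. Outside them, 54 genes were higher and 110 lower of 10050. The median of the chromosome 1 block minus that of genes outside both blocks was -0.42 as deposited and after quantile normalization, and that of the X block was -0.57 and -0.56; centring arrays on a constant cannot change these values.

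The shift ran through each block rather than resting on a few genes. In groups of about 40 neighbouring genes the median difference was -0.28 to -0.58 for the first 7 groups of chromosome 1 and -0.04 for the next one, and it was -0.38 to -0.79 for the first 4 groups of X and -0.02 for the next one. In 226 such groups on the other chromosomes the medians ranged from -0.24 to 0.10. With no limit on fold, the adjusted p was under 0.05 for 99 genes lower and 3 higher of 290 in the chromosome 1 block. In the X block, of 168 genes, it was so for 86 lower and 1 higher. Of all 10508 genes tested it was so for 614 lower and 187 higher, 7.62% in either direction.

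**Figure D3:**
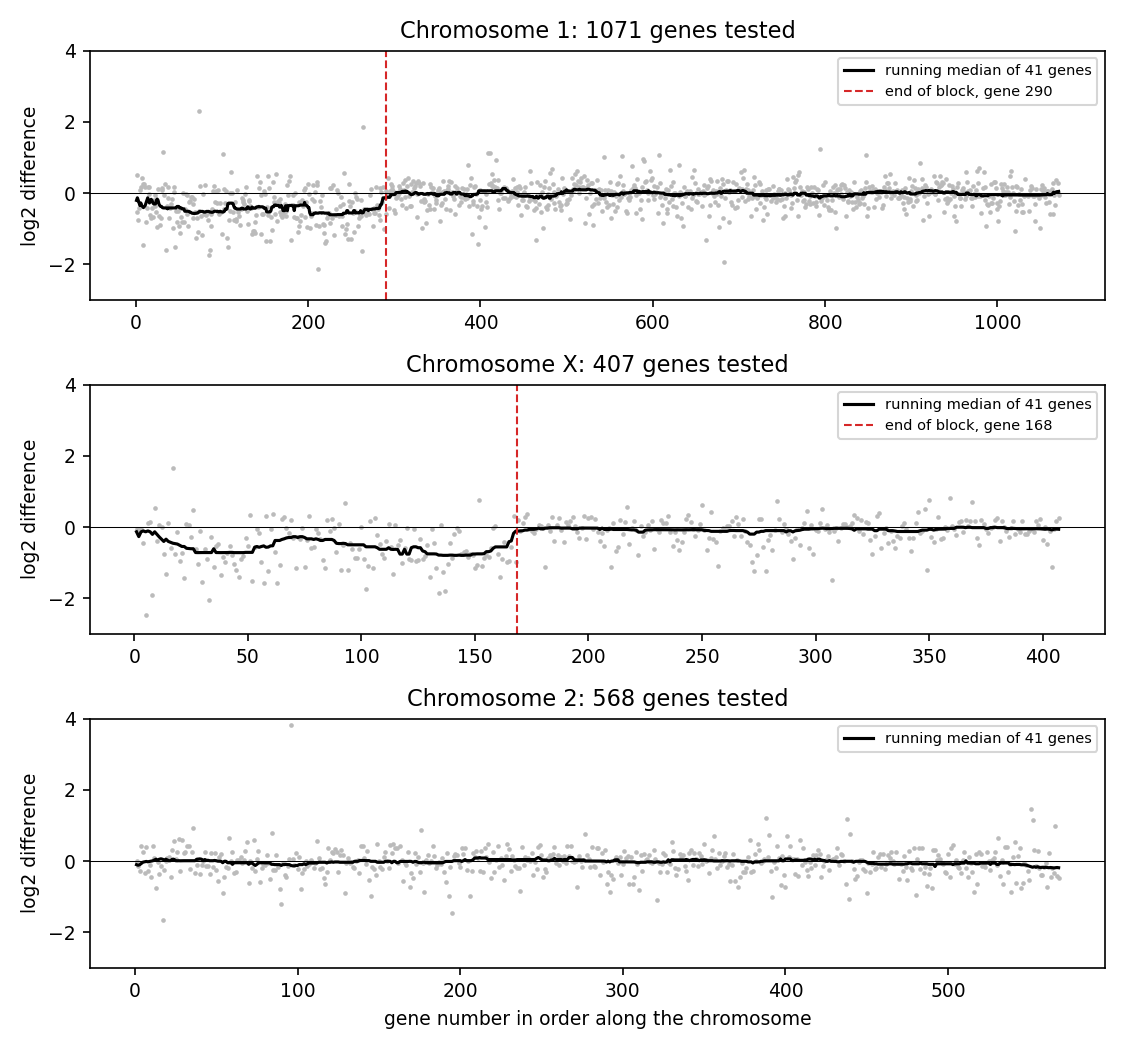
Log2 difference (CRES-1 minus RiPS1) of each tested gene against its number in order along chromosomes 1, X and 2, with the running median of 41 genes as a black line and the end of each block as a dashed line. The median lies below 0 up to gene 290 on chromosome 1 and gene 168 on X and near 0 beyond; chromosome 2, shown for comparison, has no such step.

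RiPS1 was the line that stood apart in both blocks. On each array the mean level of the block's genes was set against that of all autosomal genes outside the chromosome 1 block. For chromosome 1 this gave 0.27, 0.29 and 0.30 on RiPS1 arrays A, B and C and -0.07, -0.05 and -0.10 on the CRES-1 arrays, and the 15 arrays of the other lines lay between -0.22 and -0.07. For the X block it gave 0.35, 0.39 and 0.37 in RiPS1 and -0.15, -0.16 and -0.15 in CRES-1, with the other lines between -0.23 and -0.13. The RiPS1 arrays were above all the others in both blocks, with no overlap. Since the cuts were placed by CRES-1 minus RiPS1, the gap between those lines follows in part from that choice. The same RiPS1 arrays enter every difference of RiPS1 from another line, so those differences are not independent of the choice either. The median gene of the chromosome 1 block was higher in RiPS1 than in ORMES23 by 0.36, and that of the X block by 0.60, while CRES-1 differed from ORMES23 by -0.01 in each. Against RiPS2 and RiPS3, the other induced lines, the medians of RiPS1 were higher by 0.39 and 0.38 on chromosome 1 and by 0.53 and 0.58 on X. The arrays measured RNA alone, and DNA copy number and karyotype were not analysed here.

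**Figure D4:**
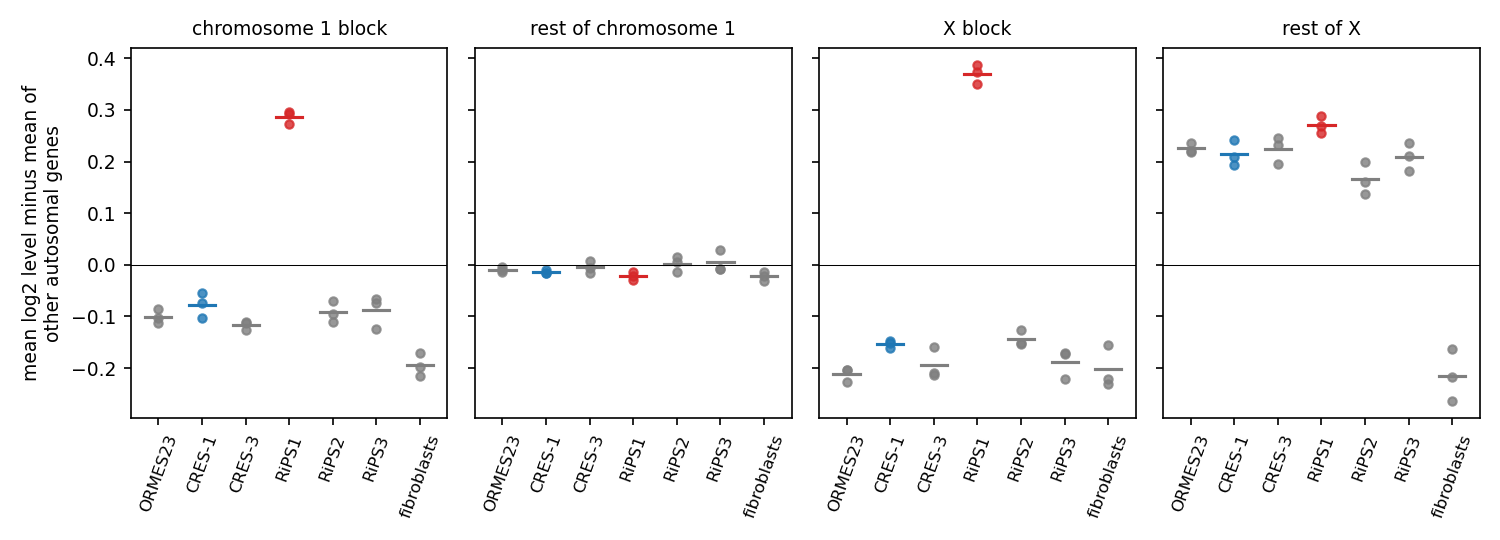
Mean log2 level of the genes of 4 regions minus the mean of autosomal genes outside the chromosome 1 block, by line; points are arrays (3 a line) and bars their means. RiPS1 lies at 0.27 to 0.30 in the chromosome 1 block and 0.35 to 0.39 in the X block, above every array of the other lines, and near 0 like them in the rest of chromosome 1.

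Among the genes called in the chromosome 1 block, 6 were named after their values were seen, for a small p or several probe sets. These had unlike roles. They were METTL13, a protein methyltransferase, RAB4A, a small GTPase of recycling endosomes, and TARBP1, an RNA methyltransferase. With them were EPHX1, an epoxide hydrolase, KIFAP3, a kinesin accessory protein, and ALDH9A1, an aldehyde dehydrogenase. RAB4A stood at 9.03, 9.13 and 8.87 in CRES-1 and 10.2, 10.1 and 9.99 in RiPS1, a difference of -1.09 ± 0.10, and ORMES23, CRES-3, RiPS2 and RiPS3 had means of 8.84 to 9.25. EPHX1 stood at 8.06, 8.07 and 8.00 in CRES-1 and 10.1, 9.57 and 9.35 in RiPS1, 3.09-fold lower in CRES-1. METTL13, TARBP1, KIFAP3 and ALDH9A1 differed by -1.52 ± 0.14, -1.13 ± 0.11, -1.16 ± 0.20 and -1.16 ± 0.14. Taking the mean of all member probe sets brought METTL13 to -0.78 and ALDH9A1 to -0.58, and median centring brought RAB4A to -0.97, each under 2-fold. The 2 genes of the block that were higher in CRES-1 were RGS4 and TMEM63A, given above.

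In the X block, too, the genes named had unlike roles, and with a single exception they were lower in CRES-1. CCDC22, a subunit of an endosomal sorting complex, stood at 6.60, 6.63 and 6.66 in CRES-1 and 8.03, 8.04 and 8.00 in RiPS1, a difference of -1.40 ± 0.11 with an adjusted p of 8.09e-07. CCDC22 had means of 6.56 to 6.78 in all the other lines, fibroblasts included. PHKA2, a subunit of phosphorylase kinase, UXT, a prefoldin-like protein, MBTPS2, a membrane-bound protease, ACOT9, a mitochondrial thioesterase, and CFP, the complement regulator properdin, differed by -1.20 ± 0.11, -1.08 ± 0.11, -1.52 ± 0.18, -1.57 ± 0.19 and -1.73 ± 0.18. These 6 were likewise named after their values were seen. PHKA2 and MBTPS2 fell short of 2-fold with the mean of member probe sets (-0.60 and -0.87) and UXT after median centring (-0.96). PIR, an iron-binding nuclear protein, also lies in the block, at 7.46, 7.79 and 8.14 in CRES-1 and 9.66, 10.1 and 9.73 in RiPS1. The exception was GPR143, a receptor of pigment cells, which was higher in CRES-1 at 6.42, 6.41 and 6.11 against 4.46, 4.65 and 4.82, at least 2.48-fold.

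Since X inactivation is the subject of the series, the X-linked genes were also split into those reported to escape silencing and the rest. All 26 escape genes tested lie in the X block. Their median difference was -0.62, with 5 lower in CRES-1 (19.2%) and 22 negative, and that of the 142 other genes of the block was -0.57, with 31 lower (21.8%). The genes lower in CRES-1 were CTPS2, a cytidine triphosphate synthase, EIF2S3, a subunit of translation initiation factor 2, CA5B, a mitochondrial carbonic anhydrase, PNPLA4, a lipase, and GPM6B, a membrane glycoprotein of the nervous system. CTPS2 stood at 8.09, 8.30 and 8.25 in CRES-1 and 9.77, 9.58 and 9.32 in RiPS1, a difference of -1.34 ± 0.15. EIF2S3 stood at 8.97, 9.22 and 9.08 in CRES-1 and 10.4, 10.3 and 10.3 in RiPS1. In both CTPS2 and EIF2S3 RiPS1 was above the means of every other line, the female ones included.

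Other escape genes with a small p were TXLNG, SYAP1 and KDM5C, a histone demethylase, at -0.99 ± 0.17, -0.85 ± 0.13 and -0.76 ± 0.13, none of which reached 2-fold. For KDM5C the RiPS1 mean was close to those of the female pluripotent lines, 8.09 in CRES-3, 8.11 in RiPS2 and 8.09 in RiPS3, with arrays at 8.10, 8.05 and 8.23, and CRES-1, at 7.10, 7.39 and 7.62, was near ORMES23 (7.79). The calls of the escape genes were partly fragile. CA5B, at least 1.41-fold lower counted from 5, lost 2-fold without RiPS1 B and after median centring (-0.99 at the least), GPM6B without CRES-1 C, RiPS1 A or RiPS1 B and after either rescaling (-0.89 at the least), and PNPLA4 lost its call without any array but RiPS1 C and after median centring (adjusted p up to 0.1498 over the alternatives). EIF2S3 came to -0.65 with the mean of its 3 probe sets.

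Over the whole of X, 44 of 407 genes were lower and 1 higher in CRES-1, with a median of -0.14, a value that the block makes. The mean X-linked level relative to autosomal genes was 0.05 to 0.08 on the CRES-1 arrays and 0.29 to 0.33 on the RiPS1 arrays, and the difference of -0.25 had an exact two-sided permutation p of 0.1, the smallest that 3 against 3 arrays can give. In the rest of X, these levels were 0.19 to 0.24 in CRES-1 and 0.25 to 0.29 in RiPS1, against 0.14 to 0.24 over the other pluripotent arrays, so that RiPS1 lay above the rest there too, by less than in the block. Of 4 genes listed as pseudoautosomal, which both sex chromosomes carry in whole or in part, XG was lower in CRES-1, at 4.48, 4.57 and 4.56 against 7.29, 7.25 and 6.52, at least 4.06-fold, and the other 3 were not called. XG, a cell surface blood group protein, was as low in ORMES23 (4.45) as in CRES-1 and between 5.47 and 6.64 in CRES-3, RiPS2 and RiPS3. None of 10 genes of the X inactivation machinery was called.

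**Figure D5:**
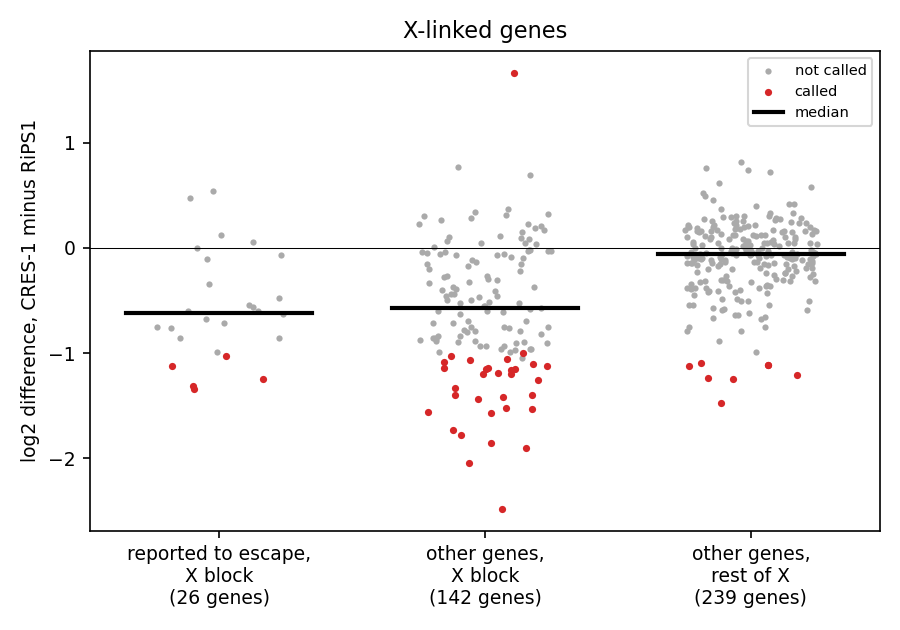
Log2 difference (CRES-1 minus RiPS1) of X-linked genes: 26 reported to escape X inactivation and 142 others in the X block, and 239 in the rest of X; points are genes, red ones were called, and bars are medians. The medians are -0.62, -0.57 and -0.06, so the escape genes lie with their neighbours in the block.

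Imprinted genes changed singly. Of 10 paternally expressed genes tested, PEG3 was higher and DLK1 lower in CRES-1, and none of 13 maternally expressed genes was called. DLK1, a transmembrane ligand related to Notch ligands, stood at 5.89, 5.70 and 6.67 in CRES-1 and 7.997, 7.505 and 7.62 in RiPS1, a difference of -1.62 ± 0.45. Here it was CRES-1 that stood apart, since ORMES23, CRES-3, RiPS2 and RiPS3 had DLK1 means of 7.83, 7.35, 7.48 and 7.76. The DLK1 call was lost without any single array but CRES-1 C, with adjusted p up to 0.125 and differences of -1.91 to -1.42 over all alternatives. PEG3 held under each alternative that tested it.

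The major histocompatibility region on chromosome 4 held several of the largest differences, in both directions. Of 18 genes of antigen presentation tested, UBD was higher and MAMU-AG and MAMU-A, class I genes, were lower in CRES-1, with a list median of -0.11. LOC708877, UBD and ZNF311 follow each other in the order of tested genes there, with differences of -2.37, 3.39 and -2.09. MAMU-AG stood at 7.22, 7.61 and 8.18 in CRES-1 and 9.29, 9.77 and 9.44 in RiPS1, with ORMES23 at 7.76, fibroblasts at 12.2 and CRES-3, RiPS2 and RiPS3 at 11.97, 11.01 and 12.1. The class I genes are near-identical copies that differ between animals, and their probe sets disagreed. A second MAMU-A probe set stood at 6.53, 6.35 and 6.97 in CRES-1 and 3.25, 4.17 and 3.66 in RiPS1, the opposite of the brightest one (7.04, 7.27 and 7.26 against 8.41, 8.29 and 8.24), and their mean gave 0.90. A second MAMU-AG probe set differed by 0.81, and the mean of both by -0.51. The direction of the class I genes is therefore uncertain.

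Of the immediate early genes, most of them transcription factors that growth factors and handling switch on quickly, 21 were tested. FOS and JUNB were higher in CRES-1 and none lower, and all 21 differences were positive, with a median of 0.53, where 5803 of all 10508 genes had a negative one. FOS stood at 10.4, 10.4 and 8.55 in CRES-1 and 6.59, 6.36 and 7.85 in RiPS1, a difference of 2.85 ± 0.75 with an adjusted p of 0.0264. JUNB stood at 8.41, 8.58 and 8.04 in CRES-1 and 6.998, 7.19 and 7.30 in RiPS1. EGR2, at 9.52, 10.0 and 10.3 against 7.22, 6.86 and 9.41, differed by 2.102 ± 0.75 with an adjusted p of 0.103. The C array of RiPS1 was the high one in FOS and EGR2, and the mean over the list was 9.10 to 9.48 on the CRES-1 arrays and 8.08 to 9.27 on the RiPS1 arrays, which overlap. Both calls were lost without CRES-1 A, CRES-1 B, RiPS1 A or RiPS1 B, with adjusted p up to 0.119 for FOS and 0.0894 for JUNB over the alternatives. How soon after handling each sample was lysed is not given in the sources used here, and its part in these differences was not tested.

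The list of histone genes, taken by symbol after the data had been seen, held 25 tested genes with a median of -0.34 and 22 negative. Of these H2BC9, H2AC16, H2AC25 and H3C2 were called lower in CRES-1 and none higher. Among all genes tested 1.68% were called lower, and 55.2% had a negative difference. H2BC9 stood at 5.36, 5.47 and 5.10 in CRES-1 and 7.33, 7.29 and 6.54 in RiPS1, a difference of -1.74 ± 0.30. H2AC16 differed by -1.54 ± 0.30, at least 1.80-fold, and H2AC25, which lies in the chromosome 1 block, by -1.02 ± 0.20. H2AC25 lost 2-fold without CRES-1 A, CRES-1 B, RiPS1 A or RiPS1 B and after either rescaling (-0.90 at the least), and H3C2, at least 1.70-fold lower, its call without any array but RiPS1 C, after median centring and with the 6 arrays alone (-1.38 to -0.75 over the alternatives, adjusted p up to 0.213). Histone genes share long stretches of sequence, so probe sets may read more than 1 of them. None of 22 cell cycle genes tested was called, and their median was -0.07. A list this short may have no called gene at the share called among all genes. Whether the cell cycle had a part in the histone differences was not tested.

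Further single calls came from other lists. DNMT1, the maintenance DNA methyltransferase, was the only one of 13 DNA methylation genes called, at 5.72, 5.90 and 5.51 in CRES-1 and 7.005, 7.06 and 6.28 in RiPS1, with ORMES23 at 5.80. Its difference of -1.08 ± 0.20 came under 2-fold without CRES-1 C, RiPS1 A or RiPS1 B and after median centring (-0.94 at the least). HOXA5 was higher in CRES-1, at 5.96, 5.63 and 5.09 against 4.61, 4.67 and 4.28, at least 1.47-fold, which left 1 of 14 HOX genes higher and 1, HOXD1, lower. HOXA5 came under 2-fold without CRES-1 A or RiPS1 C (0.84 at the least). OCLN, the tight junction protein occludin, stood at 6.31, 6.53 and 7.66 in CRES-1 and 4.73, 5.14 and 6.28 in RiPS1, with an adjusted p of 0.0479. OCLN lost its call without any array but RiPS1 C, with adjusted p up to 0.204 and differences of 1.04 to 1.90 over the alternatives. The OCLN call was also lost with the replicate letter as a block, with the 6 arrays alone, with no filter and with every probe set tested. Quantile normalization and leaving out the genes of the 2 blocks ended it too.

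Signalling and metabolic lists gave no called gene, and at the 2.23% of all genes lists this short may have none. None passed of 20 FGF, 25 WNT, 25 TGF-beta, nodal and BMP, 20 glycolysis, 21 respiratory chain, 12 heat shock, 15 interferon-induced and 11 protocadherin genes. The medians of the TGF-beta, nodal and BMP list and the glycolysis list were 0.27 and -0.25, and those of the others lay between -0.05 and 0.11. FAIM was the only called gene of 17 apoptosis genes and CDKN2A of 7 cell cycle inhibitors.

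Set beside ORMES23, the male line from a fertilised embryo, CRES-1 gave no called gene in limma, with 1225 at an unadjusted p under 0.05, and RiPS1 gave 261 (2.48%), with 2251 at an unadjusted p under 0.05. Both comparisons use the same ORMES23 arrays. Of the RiPS1 calls 200 were higher and 61 lower than ORMES23. Among the 177 genes lower in CRES-1 than in RiPS1, RiPS1 was the line farther from ORMES23 in 160 and CRES-1 in 17, with median differences from ORMES23 of 1.10 in RiPS1 and -0.16 in CRES-1. The 2 blocks, in which RiPS1 stood apart, hold 67 of these 177 genes. Over all genes tested the medians were 0.01 in RiPS1 and -0.01 in CRES-1, and the line farther from ORMES23 was not counted. Among the 57 genes higher in CRES-1, RiPS1 was farther in 40 and CRES-1 in 17, with medians of -1.05 and 0.34. DLK1, JUNB, RGS4 and RASGRF2 were among those in which CRES-1 lay farther out.

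The female lines CRES-3 and RiPS3, also a cloned and an induced line, differed in 4 called genes (0.0381%), with 838 at an unadjusted p under 0.05. The difference between the male and the female pair was called for 316 genes (3.01%), 93 more positive and 223 more negative in the male pair, and it passed the adjusted p for 44 of the 57 genes higher and 117 of the 177 genes lower in CRES-1. Those 57 and 177 genes were picked by the male difference, a term of this contrast, so their counts follow in part from that choice. The share of all genes at that adjusted p alone was not counted. Without CRES-1 A, RiPS1 A or RiPS1 B, the difference between the pairs was called for 199, 200 and 209 genes. The block medians of CRES-3 minus RiPS3 were -0.0008 on chromosome 1 and 0.0025 on X. The female difference had the sign of the male one in 15 of the 57 genes higher and 67 of the 177 genes lower in CRES-1. Its medians in them were -0.23 and 0.05, against 0.015 over all genes tested. The share of all genes with the same sign in both pairs was not counted. FOS and EBF2 were among the genes with opposite directions, at 2.85 and -2.68 for FOS and -2.23 and 1.59 for EBF2. Sex, the age of the animal and the single derivation of each line cannot be told apart in this comparison.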

How the data were processed

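Each array has a deposited log2 intensity for every probe set, computed by the authors with RMA according to the submitters' processing notes; no genome build is given in the sources used here, and no column of the table was left out. RMA as usually run brings arrays to a common distribution, so a shift of many genes is read relative to the rest. Probe sets were named through the platform annotation, 24629 of 24969 with a single symbol by Entrez ID to RefSeq and 318 by symbol, and 22 kept their old name; 361 with several symbols and 27535 with none were left out. Each gene was read from its member probe set with the highest mean over the 21 arrays. limma 3.58.1 (R 4.3.3) was fitted with a mean per line over all 21 arrays (lmFit, eBayes, two-sided, 14 residual degrees of freedom), adjusted by Benjamini-Hochberg over 10508 genes, and tested on simulated data. Same-lettered arrays of the 2 lines deviated together from their line means (correlations of 0.32, 0.33 and 0.34 for A, B and C), so the letters pair the samples by the data, and the block was tried as an alternative. Named genes were the 15 largest rises and falls by log2 difference whose arrays did not overlap, every called member of a list, up to 5 members with the smallest p of each list described, the reprogramming factors, XIST and Y-linked genes; block genes and neighbours of a named gene were added after their values were seen. The members and gene lists were chosen with earlier results of these data known.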

Additional observations from a re-analysis of the deposited data

Results flagged for a closer look

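For 49 of the 60 called genes named above, the difference between CRES-1 and RiPS1 was not the same as that between CRES-3 and RiPS3, by a limma interaction term with an adjusted p under 0.05. These genes were called by their male difference, which is a term of this contrast, so the count follows in part from that choice. Of all genes tested, 316 (3.01%) passed that adjusted p with a value of at least 2-fold. The share of all genes at the adjusted p alone was not counted, so the 49 of 60 cannot be set against it. The values below are the male difference minus the female difference on the log2 scale. Among genes higher in CRES-1 it was 4.00 for FAIM, 3.23 for DHRS2, 5.53 for FOS, 2.38 for PEG3, 2.38 for ATP8A2, 3.78 for RGS4, 3.13 for SEMA3C, 2.41 for LOC718462, 3.12 for CDKN2A, 2.76 for RASGRF2, 2.90 for UGT3A1, 2.53 for LOC695105, 2.47 for CDH13, 2.00 for JUNB, 1.504 for HOXA5 and 2.78 for GPR143. For FOS the female pair went the other way by 2.68, so that the value adds 2 changes of opposite sign. RGS4, GPR143, CDKN2A, SEMA3C and UGT3A1 likewise had female differences of -1.47, -1.12, -1.07, -0.97 and -0.96. Among these genes higher in CRES-1, only PEG3 and ATP8A2 had a female difference above 0, at 0.42 and 0.32. In the chromosome 1 block it was -1.08 for H2AC25, -1.63 for METTL13, -1.10 for RAB4A, -1.18 for TARBP1, -2.29 for EPHX1, -1.21 for KIFAP3 and -0.92 for ALDH9A1. In the X block it was -1.85 for XG, -2.11 for PIR, -1.40 for CTPS2, -1.45 for EIF2S3, -1.26 for CA5B, -1.15 for GPM6B, -1.45 for ZNF182, -1.62 for CCDC22, -1.21 for PHKA2, -1.01 for UXT, -2.01 for MBTPS2, -1.46 for ACOT9 and -1.58 for CFP. Elsewhere it was -3.59 for LRRC63, -3.31 for COL6A3, -2.78 for HOXD1, -1.56 for LOC708877, -3.82 for EBF2, -2.16 for MB, -2.26 for ZNF311, -2.36 for SOHLH2, -2.03 for LOC698674, -2.28 for SPATA6, -3.86 for ZNF534, -1.74 for MAMU-AG and -1.83 for H2BC9. Of the genes elsewhere, EBF2 and ZNF534 had the largest female differences of opposite sign. The male and female values were -2.23 and 1.59 for EBF2 and -1.93 and 1.93 for ZNF534. Over all genes of each block the median female difference was -0.0008 on chromosome 1 and 0.0025 on X. Among the block genes listed here it ran from -1.47 for RGS4 and -1.12 for GPR143 to 0.66 for EPHX1. PHKA2 (0.0054) and RAB4A (0.0098) were the nearest to 0. Sex, animal and line cannot be told apart here. Groups of 3 arrays were not searched for single arrays that stand apart.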

How the results depend on the processing

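Of the called genes named above, 32 of 60 kept their call under every one of the 18 alternatives that tested them, and 59 kept their sign there. Genes of the 2 blocks were not tested in the alternative without them. A gene that failed the minimum of 6 was not tested in that one. The array count, the single derivation per line and probe sets near background (level 5) limit the precision. Against 234 calls, the alternatives gave 203 to 331, apart from 801 with the adjusted p alone (187 higher, 614 lower, 101 of them X-linked) and 153 without the genes of the 2 blocks (103 lower, 7 of them X-linked), an alternative chosen after seeing the data; leaving out 1 array gave 175 to 327. Calls higher in CRES-1 were 91 after median centring and 97 with array weights, and X-linked genes lower were 29 after median centring. The X median was -0.052 with no filter, -0.19 at a minimum of 6, -0.17 with the mean of probe sets, -0.16 with every probe set, -0.019 after median centring, -0.10 after quantile normalization, -0.17 with array weights, -0.061 without the blocks, and -0.18 to -0.14 without 1 array. The chromosome 1 block median was -0.54 at a minimum of 6, -0.42 with the mean of probe sets, -0.33 after median centring and -0.38 after quantile normalization; the X block median was -0.72, -0.56, -0.47 and -0.53 in that order and -0.57 with every probe set. Without 1 array they were -0.49 to -0.44 and -0.63 to -0.58. The difference between the pairs was called for 589 genes with array weights, 210 without the blocks and 199 to 430 without 1 array; its cause was not tested. Reversed signs were those of MAMU-A with the mean of its probe sets (0.90), POU5F1 after median centring (0.074) and without CRES-1 B (0.016), and SOX2 after median centring (0.048) and without CRES-1 A (0.081, against -0.23 without CRES-1 C); the mean of its probe sets gave SOX2 -0.71. With the replicate block 236 genes were called (58 higher, 178 lower); beside OCLN, given above, and TNC (1.17), which the block brought past the threshold, the block changed no call of a named gene; it gave 43 X-linked genes lower, 35 of them in the X block, and 319 genes for the difference between the pairs.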
